A study of Rattus norvegicus with 6 samples.

Results

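The 9 genes described here encode the hormones of islet cells other than beta cells, and markers of those cells, read out in purified rat beta cells after knockdown of Nova1, an RNA-binding protein that regulates alternative splicing. They are Gcg, Sst, Ppy, Pyy, Npy, Ghrl, Irx2, Hhex and Ttr. They were chosen by gene name in the deposited assembly, letter case ignored, and make up 9 of 24579 gene models with 21 of 60887 transcripts. The knockdown group held 3 libraries of primary beta cells transfected with an siRNA against Nova1, and the control group held 3 libraries transfected with the Allstars Negative Control siRNA. All cells were FACS-purified from rat pancreas, received 30 nM siRNA with a lipid reagent for 16 h, and recovered for 48 h before RNA was taken. Batches 1, 2 and 3 each gave 1 library per group. The strain, age and number of animals, and whether batches were separate animals, are not stated in the labels. The p-values therefore speak only for these batches. Those for knockdown rest on how far the knockdown minus control difference varies from batch to batch and, in limma, on the spread over all genes. The knockdown is transient and partial: Nova1 was at 7.76, 10.2 and 9.43 CPM in knockdown libraries, against 20.6, 21.5 and 17.4 CPM in control libraries (batches 1, 2 and 3; log2 fold change -1.12, SE 0.11, limma voom with Benjamini-Hochberg adjustment, adjusted p = 0.038). CPM are estimated reads scaled to library size, adjusted between libraries by trimmed mean of M values. RPKM values, used wherever levels of different genes are compared, are reads that the authors scaled to library size and to the length of the transcript, summed over the transcripts of a gene. In RPKM, Nova1 was at 1.38, 2.38 and 1.81 in knockdown libraries, against 5.06, 2.83 and 2.03 in control libraries. By that measure Nova1 was lower in knockdown in every batch, but the groups overlapped.

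Pancreatic islets hold several endocrine cell types. Beta cells secrete insulin and amylin, alpha cells glucagon, delta cells somatostatin, gamma cells pancreatic polypeptide and epsilon cells ghrelin. Glucagon raises blood glucose and, within the islet, acts on beta cells to increase insulin release, while somatostatin inhibits the release of both insulin and glucagon. Pancreatic polypeptide, peptide YY and neuropeptide Y belong to 1 peptide family and act on related G protein-coupled receptors. Sorting of beta cells is meant to leave the other endocrine types behind. In bulk samples such as these, fewer cells of a type and less RNA per cell cannot be told apart.

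The promoters of the 5 hormone genes with the highest levels are printed to show what sequence lies at the start of each gene. They run from 250 bases before to 50 bases after the gene start, 5′ to 3′ on the gene's strand, and come from RefSeq on the build GRCr8, where all 9 genes have an entry. Capitals mark matches, on either strand, to 1 of 3 motifs. The core promoter box near the start of many genes was searched for as TATAAA. For the cyclic AMP response element TGACGTCA was used, and TGCTGAC stood for a Maf half-site. Gcg lies on the minus strand at chr3:67531484-67531783, Sst on the plus strand at chr11:90461296-90461595, Ppy on the minus strand at chr10:87556187-87556486, Pyy on the minus strand at chr10:87562421-87562720, and Npy on the plus strand at chr4:80211861-80212160.
Gcg: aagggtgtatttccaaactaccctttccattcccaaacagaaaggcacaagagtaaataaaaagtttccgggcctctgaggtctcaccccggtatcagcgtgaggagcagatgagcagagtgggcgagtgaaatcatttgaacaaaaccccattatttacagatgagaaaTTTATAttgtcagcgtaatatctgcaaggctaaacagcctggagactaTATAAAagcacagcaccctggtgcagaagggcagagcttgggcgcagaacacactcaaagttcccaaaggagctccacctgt
Sst: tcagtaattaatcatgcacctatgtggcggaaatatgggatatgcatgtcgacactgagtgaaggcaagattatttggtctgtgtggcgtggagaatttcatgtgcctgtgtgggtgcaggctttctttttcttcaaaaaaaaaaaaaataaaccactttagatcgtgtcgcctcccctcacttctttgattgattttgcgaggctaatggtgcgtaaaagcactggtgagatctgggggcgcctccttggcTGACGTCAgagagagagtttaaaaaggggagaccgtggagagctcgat
Ppy: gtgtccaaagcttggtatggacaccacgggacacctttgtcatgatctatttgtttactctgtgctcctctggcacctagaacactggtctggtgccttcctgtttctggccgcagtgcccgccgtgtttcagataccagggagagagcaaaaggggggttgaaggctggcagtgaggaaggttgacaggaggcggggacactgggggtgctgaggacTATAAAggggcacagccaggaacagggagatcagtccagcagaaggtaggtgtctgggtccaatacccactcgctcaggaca
Pyy: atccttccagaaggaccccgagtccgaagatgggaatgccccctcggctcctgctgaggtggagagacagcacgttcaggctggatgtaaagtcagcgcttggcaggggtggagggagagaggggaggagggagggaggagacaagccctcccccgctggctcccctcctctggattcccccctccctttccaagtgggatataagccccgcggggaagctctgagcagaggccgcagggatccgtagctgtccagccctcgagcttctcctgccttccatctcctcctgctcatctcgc
Npy: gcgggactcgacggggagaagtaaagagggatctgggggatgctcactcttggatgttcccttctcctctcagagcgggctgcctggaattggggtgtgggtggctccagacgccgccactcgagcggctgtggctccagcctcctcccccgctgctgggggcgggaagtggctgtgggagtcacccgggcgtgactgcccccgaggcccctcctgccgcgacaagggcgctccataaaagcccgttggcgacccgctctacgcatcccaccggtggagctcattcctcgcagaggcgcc
TATAAA matched the Gcg promoter at position -32 on the gene's strand and at -80 on the other strand (printed in its reverse complement), counted from the gene start, and the Ppy promoter at -32 on the gene's strand. Of 33469 RefSeq promoters of this length, 14.22% hold this motif. TGACGTCA matched the Sst promoter at position 3 counted from the RefSeq gene start, and 1.829% of all promoters hold it. Such positions depend on the annotated start, and where transcription starts in these cells was not tested. The Maf half-site, present in 4.443% of all promoters, was in none of these 5 windows, and the Pyy and Npy windows matched none of the motifs. Each match is a description of the letters only.

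The labelled cell type was checked against its markers. Summed RPKM of the beta cell marker list lay between 220026 and 485039 in knockdown libraries and between 295351 and 480636 in control libraries, nearly all of it from the insulin genes. Ins1 and Ins2 together took 21.4%, 9.84% and 20.7% of the estimated reads of knockdown libraries, and 20.02%, 13.2% and 21.7% of those of control libraries. Of the 10 beta cell markers, G6pc2 alone fell below the filter on low reads, at 0 to 0.066 RPKM across the 6 libraries. Knockdown libraries held 95394043 to 146453308 assigned reads and control libraries 122637234 to 292432076, and the control was the deeper library in each batch.

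The glucagon gene was the most highly expressed of the 9 genes. Gcg (Rnor_5.0 chromosome 3, 55108272 to 55117287, minus strand, 1 transcript of 6 exons) had levels of 6466, 14249 and 9214 RPKM in knockdown libraries of batches 1, 2 and 3, against 4728, 12641 and 7084 RPKM in control libraries. Iapp, the amylin gene of beta cells, stood at 7309, 8415 and 7369 RPKM in knockdown libraries and 8048, 8220 and 8310 RPKM in control libraries. The ranges of Gcg and Iapp overlap, although Gcg is the alpha cell hormone and Iapp a beta cell product.

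Npy, a neuropeptide of the sympathetic nervous system, was next, at 1697, 891 and 1103 RPKM in knockdown libraries and 1838, 1173 and 1274 RPKM in control libraries. Ppy, the gamma cell hormone, had 643, 1245 and 593 RPKM in knockdown libraries and 566, 1507 and 431 RPKM in control libraries. The levels of Npy and Ppy overlap between libraries, so their order is not set. Sst, the delta cell hormone, had 272, 268 and 387 RPKM in knockdown libraries and 231, 318 and 369 RPKM in control libraries. Pyy, which encodes peptide YY, had 63.0, 76.5 and 32.5 RPKM in knockdown libraries and 69.7, 101 and 33.5 RPKM in control libraries. The ranges of Ppy, Sst and Pyy do not overlap one another.

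The transcription factor genes and Ttr lay far lower. Irx2, a homeobox gene of alpha cells, had 3.52, 5.76 and 2.49 RPKM in knockdown libraries and 3.34, 5.07 and 1.99 RPKM in control libraries. Hhex, which maintains the delta cell fate, had 1.10, 2.07 and 1.49 RPKM in knockdown libraries and 1.05, 1.47 and 1.41 RPKM in control libraries. Ttr encodes transthyretin, a carrier of thyroid hormone and retinol-binding protein that alpha cells make, and had 1.26, 0.965 and 2.43 RPKM in knockdown libraries and 1.06, 1.03 and 2.03 RPKM in control libraries. Neighbours in this order (Irx2, Ttr, Hhex) overlap in range. Although Ttr and Gcg are both alpha cell genes, Ttr rested on 68 to 256 estimated reads per library in knockdown cells and 92 to 294 in control cells, where Gcg rested on 894958 to 1507548 in knockdown cells and 1459068 to 1696530 in control cells. Ghrl, the ghrelin gene of epsilon cells (1 transcript, chromosome 4, 208970556 to 208974465), was listed at 0 in all 6 libraries and was not tested. Its transcript belongs to the same assembled locus as Sec13, so the 0 may be a failed estimate.

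**Figure D1:**
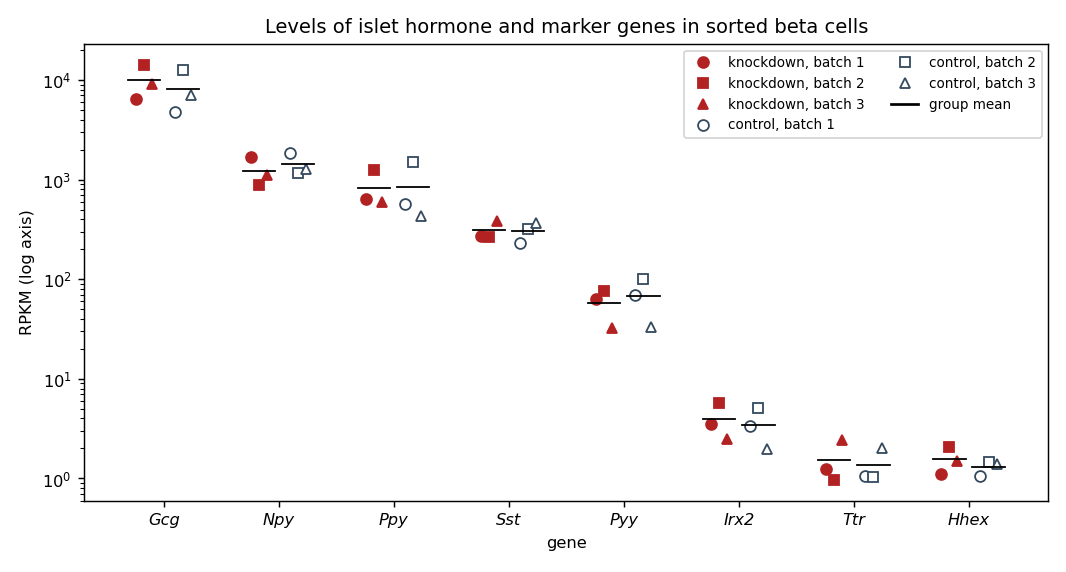
RPKM (log axis) of 8 hormone and marker genes in each library, with knockdown libraries (filled) left of control libraries (open), marker shape giving the batch and a line the group mean of 3 libraries. Gcg lies between 4728 and 14249 RPKM and Irx2, Ttr and Hhex all lie below 6 RPKM, and for no gene do the groups separate.

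Knockdown of Nova1 was set against the control siRNA within batches, to ask whether RNA of the other islet hormones changed with it. None of the 8 genes tested passed the threshold, an adjusted p below 0.05 over 15983 genes, against a background of 1.71% of all genes tested. Gcg, Pyy and Npy had an unadjusted p below 0.05, as did 23.9% of all genes tested, so 3 of 8 members stand beside a background of about 1 gene in 4. The median log2 fold change was 0.05 over the 8 genes and 0.00 over all genes tested.

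Gcg had 7174, 13896 and 10235 CPM in knockdown libraries of batches 1, 2 and 3, against 5284, 13021 and 8205 CPM in control libraries. It was higher in the knockdown library of all 3 batches, by log2 differences of 0.44, 0.09 and 0.32, while the groups overlapped, with batch 2 high in both. The log2 fold change was 0.29 (SE 0.08, 95% interval 0.09 to 0.48), with a limma voom adjusted p of 0.12. With a correction of the fold changes for transcript length, Gcg passed, at a log2 fold change of 0.38 and a limma voom adjusted p of 0.035. That setting raised the calls over all genes to 584, against 274 without it.

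Ppy and Sst had differences of mixed sign. Ppy had 329, 560 and 304 CPM in knockdown libraries and 292, 716 and 231 CPM in control libraries. Knockdown was the higher in batches 1 and 3 and the lower in batch 2, for a log2 fold change of 0.07 (SE 0.14, 95% interval -0.29 to 0.43, limma voom adjusted p = 0.79). Sst had 162, 140 and 231 CPM in knockdown libraries and 138, 176 and 229 CPM in control libraries. Its difference was above 0 in batch 1, near 0 in batch 3 and below 0 in batch 2, for a log2 fold change of -0.03 (SE 0.11, 95% interval -0.30 to 0.24, limma voom adjusted p = 0.89). The sign of the Sst value turned with scaling by library totals, with length correction, on RPKM and without batch 2, and that of Ppy turned without batch 3. These intervals cover changes in either direction, so equal levels in both groups are not shown.

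The peptide YY and neuropeptide Y genes had the lowest fold changes of the 8 genes. Pyy had 37.4, 39.3 and 19.1 CPM in knockdown libraries, against 41.2, 55.1 and 20.7 CPM in control libraries. Knockdown was lower in all 3 batches and the groups overlapped, with a log2 fold change of -0.25 (SE 0.09, 95% interval -0.47 to -0.03, limma voom adjusted p = 0.18). Npy had 1105, 502 and 720 CPM in knockdown libraries, against 1233, 718 and 854 CPM in control libraries. Its knockdown library was also lower in all 3 batches, with the largest difference in batch 2, and the groups overlapped. The log2 fold change was -0.31 (SE 0.08, 95% interval -0.51 to -0.11, limma voom adjusted p = 0.11).

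Irx2 had 14.5, 21.3 and 11.5 CPM in knockdown libraries and 14.4, 20.6 and 11.3 CPM in control libraries, values that nearly coincide within each batch. Its log2 fold change was 0.03 (SE 0.06, 95% interval -0.11 to 0.17, limma voom adjusted p = 0.76). Hhex had 1.78, 2.97 and 2.36 CPM in knockdown libraries and 1.71, 2.13 and 2.33 CPM in control libraries, with most of the difference in batch 2 (log2 fold change 0.17, SE 0.14, limma voom adjusted p = 0.47). Ttr had 0.93, 0.63 and 1.80 CPM in knockdown libraries and 0.79, 0.71 and 1.56 CPM in control libraries, and batch 2 ran against the others (log2 fold change 0.15, SE 0.15, limma voom adjusted p = 0.59). In all, 5 of the 8 genes (Gcg, Irx2 and Hhex higher, Pyy and Npy lower) kept 1 direction in 3 batches, and 50.1% of all genes tested did so (25.8% higher and 24.3% lower). For 0 of the 8 genes did the CPM of the groups separate, and they separated for 8.06% of all genes tested. The insulin genes also did not pass, with log2 fold changes of -0.21 for Ins1 (SE 0.12, limma voom adjusted p = 0.32) and -0.17 for Ins2 (SE 0.13, limma voom adjusted p = 0.46).

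**Figure D2:**
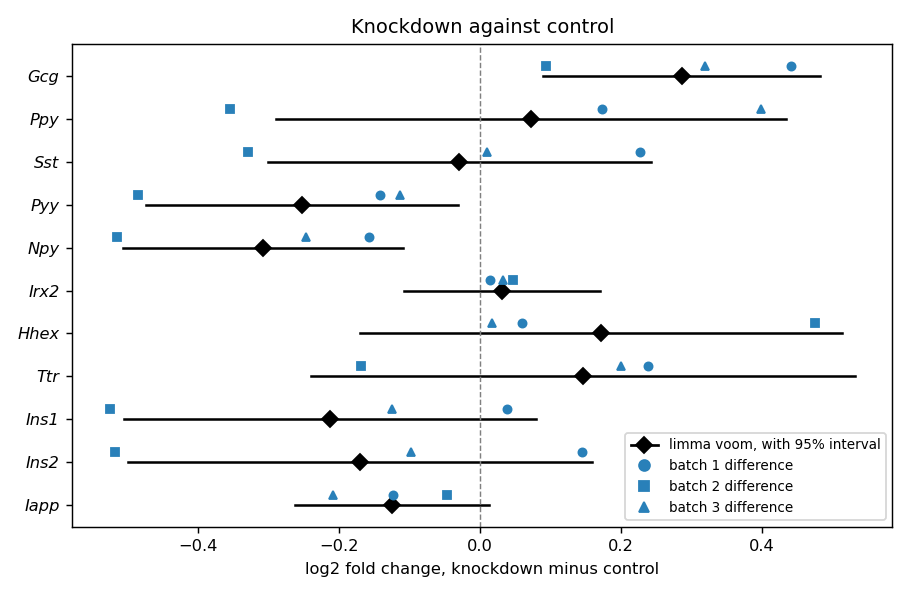
Log2 fold change, knockdown minus control, of the hormone and marker genes and of the beta cell genes Ins1, Ins2 and Iapp, with diamonds for the limma voom estimate, bars for its 95% interval and small symbols for the difference in each batch. The intervals of Gcg (0.09 to 0.48), Pyy (-0.47 to -0.03) and Npy (-0.51 to -0.11) exclude 0, but no gene shown passed after adjustment over all genes.

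Hormone RNA was then set against insulin RNA of the same library, as a percentage of the summed RPKM of Ins1 and Ins2. Gcg came to 1.36%, 6.80% and 2.04% of insulin RPKM in knockdown libraries of batches 1, 2 and 3, against 1.06%, 4.43% and 1.51% in control libraries. The percentage was higher in the knockdown library of each batch, by log2 0.47 ± 0.13 on average (SD over 3 batches), while batch 2 stood above the others in both groups. An exact two-sided sign-flip test over the 3 batches gave p = 0.25 for Gcg, the smallest p that 3 batches allow, so this design cannot reach the threshold. Ppy came to 0.135%, 0.594% and 0.131% in knockdown libraries and 0.126%, 0.528% and 0.0919% in control libraries, and Sst to 0.0573%, 0.128% and 0.0856% in knockdown libraries and 0.0515%, 0.112% and 0.0785% in control libraries. Both were higher in knockdown in every batch, by log2 0.26 ± 0.22 for Ppy and 0.16 ± 0.03 for Sst (SD over 3 batches, exact sign-flip p = 0.25 each).

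Ttr was also higher relative to insulin in every batch, by log2 0.28 ± 0.10 (exact sign-flip p = 0.25). Irx2 and Hhex, at log2 0.33 ± 0.32 and 0.35 ± 0.51, were higher in batches 2 and 3 only (exact sign-flip p = 0.50 each). Npy, at 0.357%, 0.425% and 0.244% of insulin RPKM in knockdown libraries and 0.410%, 0.411% and 0.271% in control libraries, was lower in batches 1 and 3 and higher in batch 2 (log2 -0.10 ± 0.13, exact sign-flip p = 0.50). Pyy was at log2 -0.06 ± 0.15 (exact sign-flip p = 1).

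Thus 4 of the 8 genes were higher relative to insulin in all 3 batches, as were 28.4% of the 15884 genes for which the ratio could be formed, and 0 of 8 were lower in all 3, as were 3.83%. Part of this ratio is the insulin genes' own value. Summed insulin RPKM was 475162, 209686 and 451999 in knockdown libraries and 448129, 285220 and 469674 in control libraries. In batch 2 the log2 difference in summed insulin RPKM, knockdown minus control, was -0.44, where the Gcg difference in CPM was 0.09. In batches 1 and 3 the insulin differences were 0.08 and -0.06, and those of Gcg 0.44 and 0.32.

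With Iapp in place of insulin, the Gcg ratio was higher by log2 0.43 in knockdown, and the exact sign-flip p was again 0.25. Sst, Ppy and Ttr no longer kept 1 direction in every batch against Iapp, at log2 0.11, 0.21 and 0.23 (exact sign-flip p = 0.75, 0.50 and 0.50), while Irx2 and Hhex did, at 0.29 and 0.31 (exact sign-flip p = 0.25 each). The count was then 3 of 8, with Gcg the gene common to both counts. How many of all genes kept 1 direction against Iapp was not counted. Part of this ratio is the value of Iapp itself, whose RPKM was lower in knockdown in batches 1 and 3 and higher in batch 2. Gcg, Sst and Ppy together, the hormones of 3 non-beta cell types, summed to 1.55%, 7.52% and 2.26% of insulin RPKM in knockdown libraries, against 1.23%, 5.07% and 1.68% in control libraries. Gcg made up most of each sum.

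**Figure D3:**
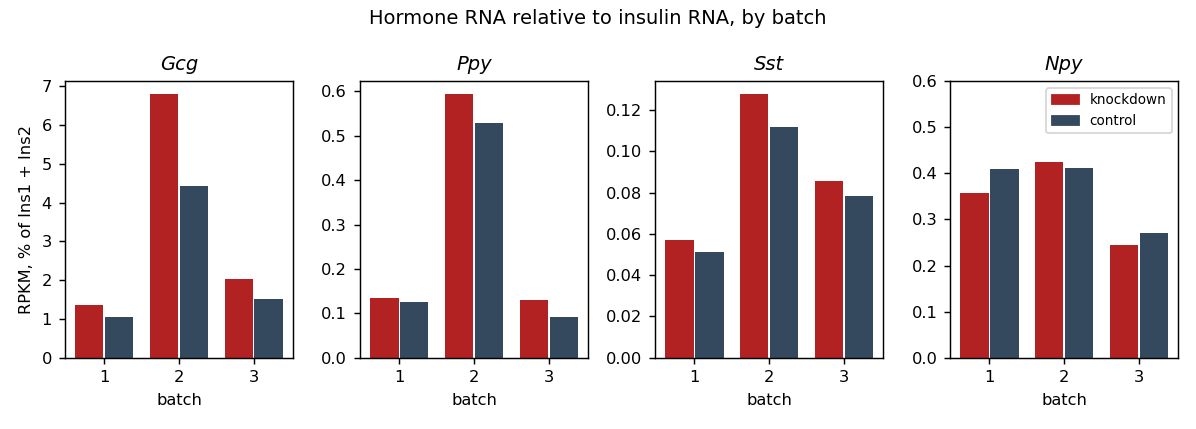
RPKM of Gcg, Ppy, Sst and Npy as a percentage of the summed RPKM of Ins1 and Ins2, in the knockdown (left bar) and control (right bar) library of each batch, 1 library per bar, with a separate axis for each gene. Batch 2 is the highest for Gcg, Ppy and Sst in both groups, at 6.80% and 4.43% for Gcg, and in both groups the step from batch 2 to either other batch is larger for Gcg and Ppy than the step between treatments in any batch.

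For each of the 8 genes tested, the largest difference between batches exceeded the difference between treatments. The first is the widest of several differences and the second a single estimate. How many of all genes tested share this was not counted. In the F test of the batch term (limma voom, 2 libraries per batch, Benjamini-Hochberg over all genes tested), 7 of the 8 genes passed, against 56.1% of all genes tested. Relative to batch 1, Gcg was higher by log2 1.13 in batch 2 and 0.57 in batch 3 (limma voom adjusted p = 0.0018). Ppy was higher by log2 1.03 in batch 2, with a difference of -0.23 in batch 3 (limma voom adjusted p = 0.0057). The 2 hormones thus shared a high batch 2 and parted in batch 3.

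Irx2 resembled Ppy, with log2 differences of 0.53 in batch 2 and -0.34 in batch 3 (limma voom adjusted p = 0.0014). Sst was highest in batch 3, with log2 differences of 0.07 and 0.62 in batches 2 and 3 (limma voom adjusted p = 0.020), and Ttr too was highest in batch 3, with -0.34 and 0.98 (limma voom adjusted p = 0.0056). Pyy was lowest in batch 3, with 0.26 and -0.98 (limma voom adjusted p = 0.0017), although it lies beside Ppy on chromosome 10 with 5107 bases between the genes and encodes a peptide of the same family. Npy was highest in batch 1, with log2 differences of -0.96 in batch 2 and -0.58 in batch 3 (limma voom adjusted p = 0.0027). Hhex did not pass, with 0.51 and 0.42 (limma voom adjusted p = 0.084), but did with library totals as the only scaling (limma voom adjusted p = 0.041).

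The alpha cell members did not all share a batch pattern. Gcg and Irx2 were both highest in batch 2, and Ttr, which rests on few reads, in batch 3. For the delta cell members a difference was not clear. Sst was highest in batch 3, while the Hhex differences for batches 2 and 3 lay close together and did not pass. In CPM, Hhex was highest in batch 2 in knockdown libraries and in batch 3 in control libraries, while in RPKM it was highest in batch 2 in both groups. Ins1 and Ins2 were lower in batch 2 by log2 differences of -1.06 and -1.10 and near batch 1 in batch 3, at 0.03 and 0.01. Iapp showed no batch difference that passed, at -0.02 and 0.05 (limma voom adjusted p = 0.62). What set the batches apart was not tested.

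**Figure D4:**
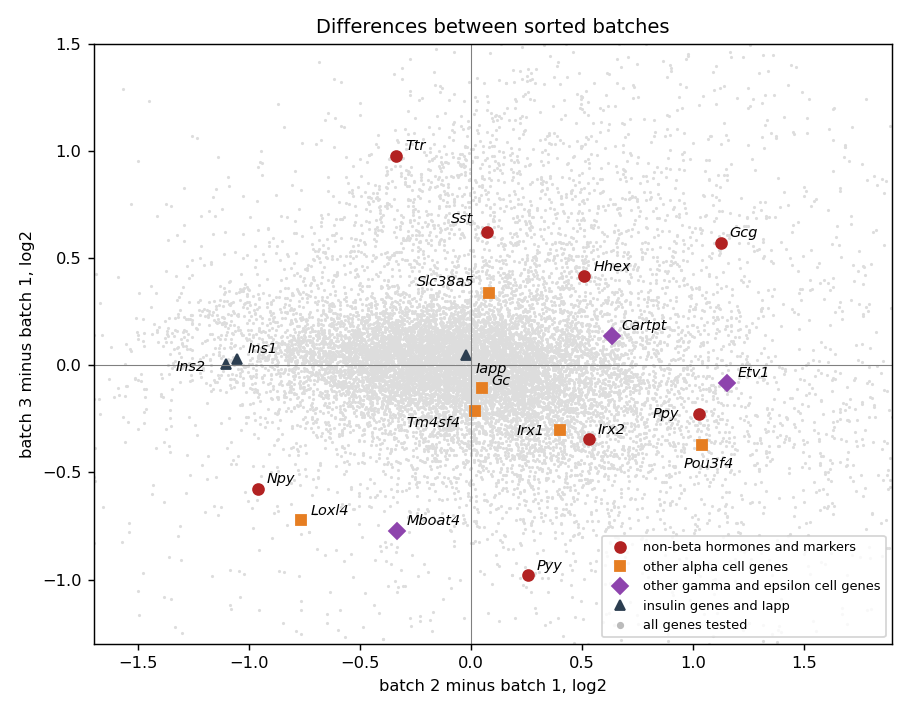
Log2 difference of batch 2 from batch 1 (horizontal) and of batch 3 from batch 1 (vertical) for each gene tested, with the hormone and marker genes, some other alpha, gamma and epsilon cell genes, and the beta cell genes named; genes beyond the axis ends are not drawn. Gcg (1.13 and 0.57) and Ppy (1.03 and -0.23) lie to the right, and Ins1 and Ins2 to the left at -1.06 and -1.10.

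Among the members, Npy had by far the most complex model. Gcg, Sst, Ttr and Ghrl had 1 assembled transcript each, Ppy, Pyy and Hhex 2, Irx2 4 and Npy 7. Over all genes, 99 of 31429 transcripts changed their share of the gene (0.315%, limma diffSplice with Benjamini-Hochberg adjustment), and 0 of the 15 transcripts of these genes that were tested did. The 4-exon reference transcript of Npy (chromosome 4, 144233780 to 144240952) held 62.3%, 65.4% and 57.4% of Npy RPKM in knockdown libraries and 57.2%, 57.6% and 62.8% in control libraries. The share was higher in knockdown in batches 1 and 2 and lower in batch 3, with overlapping groups.

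The other 6 Npy transcripts, which the assembly classes as new forms, ended past the reference transcript at 144255005. Together they held 37.7%, 34.6% and 42.6% of Npy RPKM in knockdown libraries and 42.8%, 42.4% and 37.2% in control libraries. At their end lies a neighbouring gene model of the same locus, named only by an identifier (144248690 to 144255000). Its 3 exons are 188, 81 and 198 bases long, the same lengths as exons 2, 3 and 4 of Npy, and lie 14049, 14048 and 14048 bases downstream of them. Some of the 6 transcripts leave an Npy exon partway and resume at the matching next base of a neighbouring exon. These joins run from 144234772 to 144248822, from 144240825 to 144254874 and from 144240855 to 144254904. Whether they are splicing was not tested. The sequences of these exons were not compared here, and how the authors' counting divided reads between the models is not given. The neighbouring model held 575 to 826 RPKM over the 6 libraries. Summed with Npy, the locus had a log2 fold change of -0.27 (SE 0.08, limma voom adjusted p = 0.13), and the neighbouring model alone -0.16 (SE 0.09, limma voom adjusted p = 0.34). The Npy values above leave out the reads assigned to the neighbouring model. They include those assigned to the 6 transcripts that run over its exons, so the values of Npy and its neighbour are not separate.

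**Figure D5:**
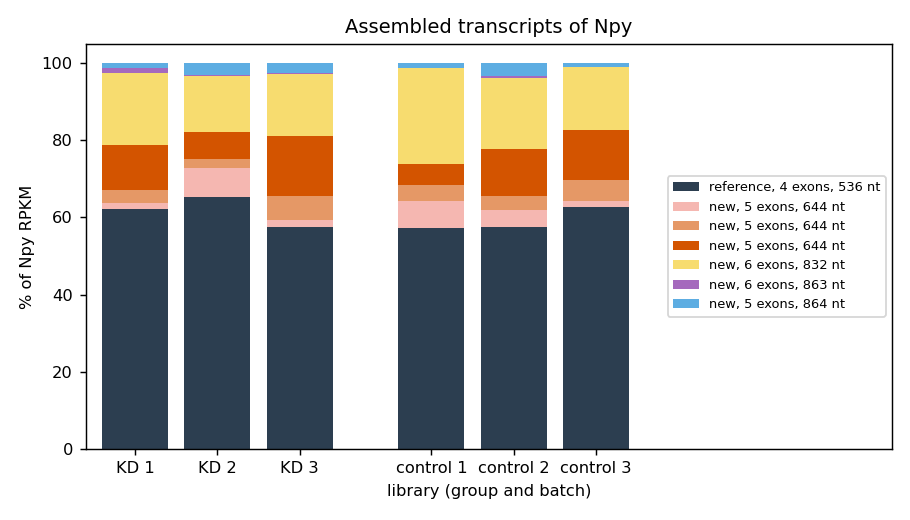
Share of Npy RPKM (%) in each of its 7 assembled transcripts, for the 3 knockdown (KD, left) and 3 control libraries, numbered by batch. The reference transcript of 4 exons (dark, at the base) holds 57.2% to 65.4% in all 6 libraries. The rest is spread over transcripts classed as new in the assembly, which run into the neighbouring model.

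No transcript share of the other members passed either. The reference transcript of Ppy held 87.4%, 74.5% and 81.0% of the gene in knockdown libraries and 86.3%, 70.6% and 80.6% in control libraries, and the other Ppy transcript is 4 bases shorter at the 3′ end of its exon 3. That of Pyy held 85.0% ± 1.6 in knockdown libraries and 84.9% ± 1.2 in control libraries (SD, n = 3). The reference transcript of Irx2 held 72.8%, 71.4% and 63.0% in knockdown libraries and 69.8%, 66.6% and 46.7% in control libraries, higher in knockdown in every batch. It did not pass (limma diffSplice adjusted p = 0.62). The reference transcript of Hhex held 73.2% ± 9.3 in knockdown libraries and 66.1% ± 8.4 in control libraries (SD, n = 3).

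Genes of the same cell types and pathways were counted from lists chosen with earlier results of these data known. Their counts stand beside the shares over all genes tested, 1.71% called and 23.9% at an unadjusted p below 0.05. Of 8 alpha cell genes tested, 0 were called in either direction (3 at an unadjusted p below 0.05), with a median log2 fold change of 0.02. The most abundant were Slc38a5, an amino acid transporter of alpha cells, at 615, 744 and 735 RPKM in knockdown libraries and 594, 675 and 761 RPKM in control libraries, and Gc, the vitamin D-binding protein gene, at 323, 376 and 285 RPKM in knockdown libraries and 301, 342 and 283 RPKM in control libraries. Their log2 fold changes were 0.00 and 0.03.

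Of 5 delta cell genes tested, 0 were called (2 at an unadjusted p below 0.05), and the median was 0.00. The most abundant were Rbp4, the retinol-binding protein gene, with a log2 fold change of -0.07 (SE 0.11), and Casr, the calcium-sensing receptor gene, with 0.11 (SE 0.07). Of 3 genes tested from the gamma and epsilon cell list, 1 was called, and which cells its RNA came from was not tested. Cartpt, which encodes the islet and brain peptide CART, fell in knockdown, with 142, 196 and 153 CPM in knockdown libraries, against 192, 334 and 215 CPM in control libraries. It was lower in knockdown in every batch, the groups overlapped in CPM, and the log2 fold change was -0.56 (SE 0.08, limma voom adjusted p = 0.046). This call, like that of Nova1 and of the markers named below, was lost without the batch block, on RPKM and without batch 2, settings in which 0 genes passed.

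Of 8 receptor genes for these peptides that were tested, 0 were called (4 at an unadjusted p below 0.05), with a median of -0.10. Glp1r, the receptor of the proglucagon product GLP-1 on beta cells, was the most abundant, at 149, 113 and 138 RPKM in knockdown libraries and 152, 107 and 135 RPKM in control libraries (log2 fold change 0.04, SE 0.04). Sstr3, a somatostatin receptor, had 38.5, 29.4 and 30.2 RPKM in knockdown libraries, against 31.4, 24.3 and 25.3 RPKM in control libraries. It was higher in knockdown in every batch, with overlapping groups, and did not pass (log2 fold change 0.23, SE 0.05, limma voom adjusted p = 0.076). Of the 13 receptor genes, Npy2r and Npy5r were listed at 0 in all 6 libraries. Of 8 genes for peptide processing, 0 were called (1 at an unadjusted p below 0.05), with a median of 0.02. Cpe, which trims prohormones, had a log2 fold change of 0.02 (SE 0.06), and Pam, which amidates peptides such as pancreatic polypeptide and neuropeptide Y, -0.13 (SE 0.06).

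Markers of cells outside the islet's endocrine types were counted in the same way, and few were called. Over all 15983 genes tested, 8112 had a positive and 7871 a negative log2 fold change. The 8 acinar markers came to 9 gene models, because Amy2 has separate models with close values that are each counted. Of these models 8 had a negative log2 fold change, the median was -0.40, and 6 had an unadjusted p below 0.05. Ctrb1 alone was called, and fell (log2 fold change -0.40, limma voom adjusted p = 0.046). The summed list was at 415, 291 and 152 RPKM in knockdown libraries, against 547, 339 and 207 RPKM in control libraries, lower in knockdown in every batch. Of 6 fibroblast markers 5 had a positive log2 fold change, the median was 0.76, and 3 had an unadjusted p below 0.05. Col3a1 alone was called, and rose (log2 fold change 1.26, limma voom adjusted p = 0.042). The summed list was at 16.6, 21.0 and 22.2 RPKM in knockdown libraries, against 6.65, 8.27 and 14.9 RPKM in control libraries, and the groups did not overlap. How often the sum of a list separates the groups was not counted. Col1a1, Col1a2 and Col3a1 made up most of this sum. Pdgfrb had a log2 fold change of -0.19, and Lum and Dcn differed in sign between batches. Of 6 immune markers tested, 4 had a positive log2 fold change, the median was 1.01, and 4 had an unadjusted p below 0.05. Lyz2 rose (log2 fold change 1.43, limma voom adjusted p = 0.042) and C1qa fell (log2 fold change -0.47, limma voom adjusted p = 0.046). The summed immune list was at 18.3, 23.8 and 12.8 RPKM in knockdown libraries, against 16.4, 16.1 and 13.9 RPKM in control libraries. Duct markers, 3 tested, summed to 15.5 to 26.0 RPKM in knockdown libraries and 15.2 to 27.1 RPKM in control libraries. Endothelial markers, 3 tested, summed to 1.15 to 2.43 RPKM in knockdown libraries and 1.15 to 2.40 RPKM in control libraries. Schwann cell markers, 2 tested, summed to 0.126 to 0.749 RPKM in knockdown libraries and 0.170 to 0.743 RPKM in control libraries. None of these, nor of the 2 sympathetic neuron markers tested, was called. Summed markers of sympathetic neurons, which use Npy, lay between 0.086 and 0.289 RPKM in knockdown libraries and between 0.202 and 0.324 RPKM in control libraries. The part of these cells in the hormone values was not tested.

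For Gcg, Sst and Ppy, the 5 named genes with the most similar pattern over the 6 libraries were sought among 10667 models of at least 1 RPKM, by Pearson's r of log2 CPM. The groups share their 3 batches, and the values of r are descriptions with no test. Gcg was most like Pnpla3, Sema3d, C330018D20Rik, Klc3 and Fv1, at r of 0.994, 0.992, 0.984, 0.982 and 0.982. Sst was most like Tpbg (0.980), Gm16490 (0.980), Ptma (0.976), Rps20 (0.973) and Rps20l1 (0.973). Ppy was most like Tada3 (0.996), Hlxb9 (0.996), Ssb (0.995), Trim45 (0.994) and Sec62 (0.994). The size of the differences is not measured by r. Over the 6 libraries the log2 range was 1.63 for Ppy and 0.23 to 0.61 for its 5 genes. It was 1.39 for Gcg and 0.35 to 1.98 for its 5 genes, and 0.74 for Sst and 0.59 to 1.79 for its 5 genes. Symbols are as the files give them. Among the members, r over the same 6 libraries was 0.74 for Gcg with Ppy and 0.14 for Gcg with Sst, and -0.94 for Gcg with Npy.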

How the data were processed

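RNA of 6 libraries of rat beta cells was sequenced on an Illumina instrument after oligo(dT) selection, per the labels' protocols. The submitters' processing notes name TopHat and the build Rnor_5.0. The authors deposited, for each transcript of 1 common assembly, an estimated count of reads and an RPKM value. How reads were divided among transcripts, and with what strand setting, is not given in the sources used here, and 18.2% to 18.8% of the deposited read values above 0 were whole numbers (tolerance 0). Reads and RPKM were summed per gene model. RefSeq supplied a symbol for 500 models, and 5189 models without one are not named.

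Because reads are held as attribute text, no count model was used. Scaling used the trimmed mean of M values, with trims of 30% (M) and 5% (A). A model was kept if at least 3 libraries held 10 reads or more at median depth and all libraries together 15 (15983 models). All tests across genes used limma 3.58.1 in R 4.3.3, with a voom fit to all 6 libraries and batch as a block, which leaves 2 residual degrees of freedom, and Benjamini-Hochberg adjustment. Transcript shares were tested with diffSplice. Ratios to insulin were tested with exact sign flips (8 flips). The code was tested on simulated data. The batch numbers in the labels pair the libraries: deviations from the group mean correlated at 0.42, 0.75 and 0.60 within batches 1, 2 and 3.

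The genes and lists were chosen with earlier results of these data known. Every gene of the set is named. Of each other list, up to 4 called genes are named, or else the 2 of highest mean RPKM. Some genes of these lists are not reported here. The alternatives were no block, leaving out each batch, other scalings and filters, log2(RPKM + 1) and log2(RPKM + 0.1), length correction (a lowess fit of each library's deviations on length), other denominators for the insulin ratio, and, added after seeing the data, Npy summed with its neighbouring model.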

Additional observations from a re-analysis of the deposited data

How the results depend on the processing

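In none of the alternatives was any of the 8 genes called in knockdown against control, except Gcg with length correction (1 of 8). The number of calls over all genes, 274, moved far more: 0 without the replicate block (521 at an unadjusted p below 0.05), 91 with library totals alone, 174 with no filter, 119 with a filter 5 times stricter, 0 on log2(RPKM + 1) and on log2(RPKM + 0.1) (3193 and 3111 unadjusted), 584 with length correction, and 0 to 63 with a batch left out (0 without batch 2, 2803 unadjusted). Without the replicate block Gcg was at 0.27 and Npy at -0.30, and no direction changed.

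Values that changed sign were Sst at 0.027 with library totals alone, 0.019 on log2(RPKM + 1), 0.020 on log2(RPKM + 0.1), 0.11 with length correction and 0.12 without batch 2, Irx2 at -0.046 with length correction, Ppy at -0.090 without batch 3, and the Pyy ratio to insulin at 0.028 without batch 1 (-0.11 without batch 2). The cause was not tested. With a batch left out, the fold changes ranged from 0.21 to 0.38 for Gcg, -0.38 to -0.20 for Npy, -0.31 to -0.13 for Pyy, -0.15 to 0.12 for Sst, -0.090 to 0.29 for Ppy, 0.038 to 0.26 for Hhex, 0.086 to 0.22 for Ttr and 0.023 to 0.043 for Irx2. The ratios to insulin ranged from 0.40 to 0.53 for Gcg, 0.14 to 0.17 for Sst, 0.13 to 0.34 for Ppy, 0.24 to 0.33 for Ttr, 0.19 to 0.50 for Irx2, 0.059 to 0.54 for Hhex and -0.18 to -0.053 for Npy. Both Hhex values were lowest without batch 2. The count of genes with 1 direction relative to insulin in every batch was 4 to 7 with a batch left out, and 7 without batch 1, where only 2 batches need to share a sign. It was 3 (Gcg, Irx2 and Hhex) with Iapp in place of insulin, where the share over all genes was not counted. Calls of transcripts over all genes, 99, were 165 with diffSplice on log2(RPKM + 0.1) and 0 to 2 with a batch left out.

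Library totals alone moved the median of all genes by 0.06 (log2). Ttr and Hhex rest on the fewest reads of the 8 genes.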
